A study of Mus musculus with 16 samples.

Results

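The genes described here are 10 genes of the YAP/TAZ pathway, out of 49452 genes measured: the targets *Ctgf*, *Cyr61*, *Thbs1*, *Ankrd1*, *Axl*, *Amotl2* and *Lats2* and the factors *Yap1*, *Wwtr1* (the gene of TAZ) and *Tead1*. They were picked by gene symbol, and all 10 were found. They were named with the expression values of these 16 libraries already known, so every difference between the groups of mice counts as used in choosing them and is given as a description. Where limma calls among them are counted, they stand beside the share of all genes called, and nothing is read from them. The other genes of the pathway come from a list of 49 that was drawn up by known function, also with earlier results of these data known.

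RNA was sequenced from tdTomato-positive cells sorted from the left lung lobe of 16 male mice, 4 in each of 4 groups. *Acta2-tdT* mice (Acta2-CreERT2; tdTomatoflox) carry a tamoxifen-inducible Cre under the *Acta2* (αSMA) promoter, and *Pdgfra-tdT* mice (Pdgfra-CreERT2; tdTomatoflox) carry one under the *Pdgfra* promoter. In both lines Cre switches on the red reporter tdTomato for good, so the sorted cells are those that expressed the driver gene during labelling, and their descendants. Mice of each line received saline (replicates 1 to 4) or bleomycin (replicates 5 to 8), and lungs were taken on day 14, at 11 weeks of age. The lines were labelled by different schedules. *Acta2-tdT* mice ate tamoxifen food (400 mg/kg) from 5 days after saline or bleomycin, whereas *Pdgfra-tdT* mice were injected 5 times with 3 mg at 6 weeks of age, before either agent. Line and labelling schedule therefore cannot be told apart. All mice had a C57BL6 background. Values are FPKM, fragment counts divided by transcript length and by the mapped fragments of the library, so that levels of different genes can be set side by side.

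YAP and TAZ are closely related coactivators that have no DNA-binding domain of their own and reach their target genes through the TEAD family of transcription factors. In the Hippo cascade the kinases MST1/2 activate LATS1/2, which phosphorylate YAP and TAZ and keep them out of the nucleus. A stiff matrix, cell spreading and actin tension instead let them enter it. In lung and other organs they are known for their part in fibroblast activation, and the connective tissue growth factor gene *Ctgf* is their most widely used readout. *Amotl2* and *Lats2* are both targets and inhibitors of YAP and TAZ, and so form a negative feedback loop.

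The TEAD factors are known to bind the 6 bases GGAATG. These letters were searched on both strands in windows from 250 bases before to 50 after the annotated starts of RefSeq genes (GRCm38.p6). Of the 10 genes, 7 matched the promoter table, with 9 windows in all, and *Ctgf*, *Thbs1* and *Tead1* did not match it. All 7 held the motif, against 16.6% of 27025 genes and 14.7% of 32851 windows, and among the other pathway genes 10 of the 34 that matched held it (29.4%). Of the other target genes only *Crim1* held it, 1 of the 9 that matched. The AP-1 motif TGAGTCA was in none of the 7 on either strand, against 5.95% of 27025 genes, and nothing is read from its absence. A match of letters is a description and no proof of a binding site, and no enrichment was tested. The matches are shown as 30 bases on the strand of the gene, with the motif in capitals. CATTCC is the same motif read on the opposite strand.
Cyr61, chr3:145650071-145650100: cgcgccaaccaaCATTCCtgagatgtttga
Amotl2, chr9:102717727-102717756: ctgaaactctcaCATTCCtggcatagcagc
Axl, chr7:25788949-25788978: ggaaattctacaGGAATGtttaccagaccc
Lats2, chr14:57746102-57746131: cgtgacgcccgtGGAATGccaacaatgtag
Yap1, chr9:8004720-8004749: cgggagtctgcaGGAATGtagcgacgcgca
Wwtr1, chr3:57576029-57576058: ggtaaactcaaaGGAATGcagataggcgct
The first base of the motif lies 103 bases before the start of *Cyr61*, 65 before that of *Amotl2*, 233 before that of *Axl* and 141 before that of *Yap1*. The RefSeq start used for *Amotl2* lies inside the gene as located in these data (chr9:102716802-102733418), and so does its match. In *Wwtr1* it lies 136 bases before 1 annotated start and 170 before the other, and in *Lats2* it begins at base 5 of the transcript.

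*Ankrd1* had a pair of matches, the others 1 each, 210 and 123 bases before its start. The 250 bases in front of that start (chr19:36119845-36120094, minus strand, GRCm38.p6) are shown whole, with both matches in capitals.
Ankrd1: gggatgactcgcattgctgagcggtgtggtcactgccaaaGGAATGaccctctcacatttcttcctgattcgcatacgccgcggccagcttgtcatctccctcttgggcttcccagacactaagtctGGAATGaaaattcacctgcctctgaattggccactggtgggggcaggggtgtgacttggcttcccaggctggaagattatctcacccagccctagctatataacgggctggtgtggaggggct

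The libraries differed in ways that touch all 10 genes. The nuclear protein-coding FPKM summed to between 231058 and 463127 in *Acta2-tdT* bleomycin libraries but to between 28512 and 137952 in the other 12. Each value is therefore given as deposited and also scaled, that is, multiplied so that this sum equals 49122, the median of the 16, in every library. The sequencing depth of each library cannot be had from FPKM. As a gauge of the low end, the median of 1443 olfactory and vomeronasal receptor genes, which mainly serve smell, was taken. It was 0.323 to 0.332 FPKM in *Acta2-tdT* saline, 0.0134 to 0.122 in *Acta2-tdT* bleomycin, 0.175 to 0.336 in *Pdgfra-tdT* saline and 0.0917 to 0.317 in *Pdgfra-tdT* bleomycin. Of the 40 values of the 10 genes in each group, 30, 40, 22 and 25 lay above the gauge of their own library, in the same order. In *Acta2-tdT* cells *Acta2* itself was 139 to 314 FPKM with saline and 1229 to 3211 with bleomycin, against 0.831 to 19.4 in *Pdgfra-tdT* cells. *Pdgfra* was only 0.977 to 3.82 FPKM in *Pdgfra-tdT* cells, above the 0.273 to 0.562 of *Acta2-tdT* saline but overlapping the 2.49 to 11.9 of *Acta2-tdT* bleomycin.

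A pair of *Pdgfra-tdT* libraries stood apart by their endothelial markers. The summed FPKM of *Pecam1*, *Cdh5*, *Kdr*, *Tek*, *Cldn5* and *Vwf* was 333 in saline replicate 3 and 875 in bleomycin replicate 5. The other saline replicates of that line had 3.79 to 9.69, and bleomycin replicates 6, 7 and 8 had 89.8, 26.6 and 3.83. All 6 markers were at 1 FPKM or more in both libraries, with *Pecam1* at 39.1 and 65.9. Saline replicate 3 was also the highest of its group in 6 of the 10 genes and bleomycin replicate 5 in 9, so the comparisons of the 10 genes that use them are given with and without them.

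Expression of 9 of the 10 genes was higher in every *Acta2-tdT* bleomycin library than in any *Acta2-tdT* saline library, and *Yap1* overlapped. Of the 12523 genes tested, 67.8% were separated in that direction, so nothing is read from the count. The difference of mean log2(FPKM + 1) was 5.91 ± 0.45 (SE, n = 4 against 4) for *Thbs1* at the top and 1.76 ± 0.15 for *Tead1* at the bottom of the 9, where the median of all genes tested was 1.76. In *Pdgfra-tdT* cells none of the 10 separated bleomycin from saline. They were too low to be among the 7275 genes tested there, of which 2.58% were separated in either direction, so the count cannot be read against that share. In bulk RNA fewer cells of a type and less RNA per cell cannot be told apart.

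**Figure D1:**
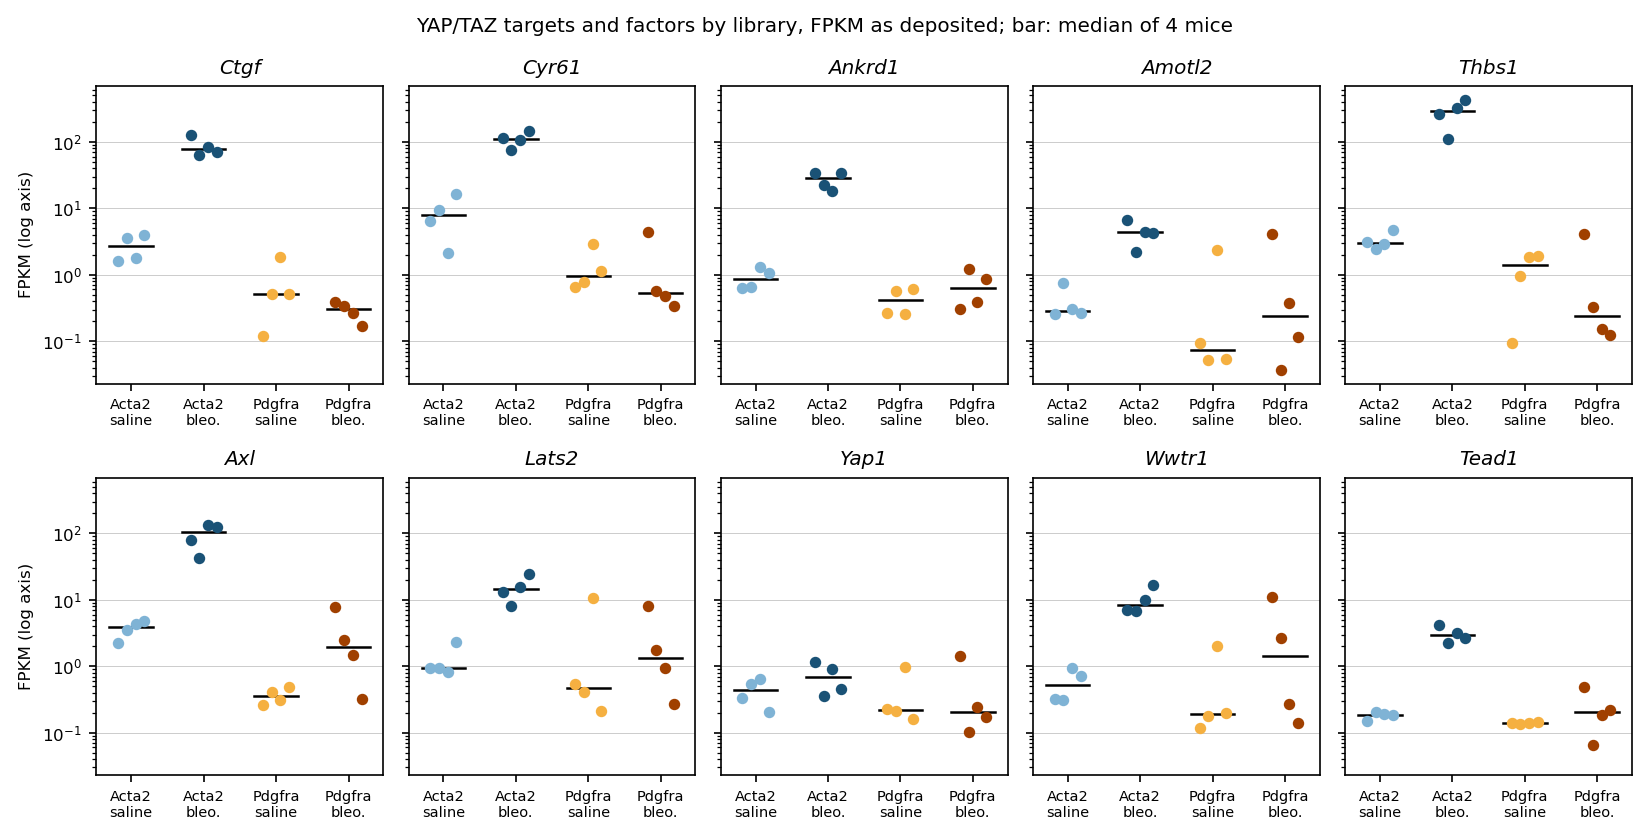
FPKM as deposited (log axis) of the 10 genes in each of the 16 libraries, with 1 point per mouse and a bar at the median of 4 mice. *Acta2-tdT* bleomycin lies above the other groups for *Ctgf*, *Cyr61*, *Ankrd1*, *Thbs1*, *Axl* and *Tead1*, whereas the highest *Pdgfra-tdT* points of *Lats2*, *Amotl2* and *Wwtr1* within each agent come from saline replicate 3 and bleomycin replicate 5.

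Among the secreted targets, *Ctgf* (ENSMUSG00000019997, chr10:24595442-24598683), which encodes the matricellular CCN2 protein, was 1.59, 3.57, 1.79 and 3.97 FPKM in *Acta2-tdT* saline and 127, 64.4, 82.8 and 70.9 FPKM in *Acta2-tdT* bleomycin. In *Pdgfra-tdT* cells it was 0.121, 0.511, 1.84 and 0.51 FPKM with saline and 0.394, 0.344, 0.266 and 0.171 FPKM with bleomycin. *Ctgf* was thus high in 1 group only, by 4.56 ± 0.32 on the log2 scale over saline in the same line, and ran low in *Pdgfra-tdT* cells with either agent, where 5 of 8 values lay above the gauge. Scaled, it was 2.12, 4.93, 1.81 and 3.38 FPKM in *Acta2-tdT* saline and 19.6, 13.7, 9.33 and 7.52 FPKM in *Acta2-tdT* bleomycin. The groups still did not overlap, and the difference was 1.72 ± 0.37. *Ctgf* ranked 281 of 12523 genes by its difference as deposited and 329 by the scaled one.

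*Cyr61* (ENSMUSG00000028195, chr3:145646976-145649981), which encodes CCN1, a close relative of CCN2, had the highest median of the 10 in *Acta2-tdT* saline, at 6.36, 9.37, 2.16 and 16.3 FPKM. With bleomycin it was 115, 74.7, 106 and 148 FPKM, a difference of 3.76 ± 0.55. Scaling brought the groups together: 8.48, 12.9, 2.19 and 13.9 against 17.8, 15.9, 11.9 and 15.7 scaled FPKM overlapped, and the scaled difference was 0.86 ± 0.53. Relative to the protein-coding sum *Cyr61* was thus not separated by bleomycin in this line, and saline replicate 3 was the low one. In *Pdgfra-tdT* cells it was 0.656, 0.785, 2.94 and 1.15 FPKM with saline and 4.43, 0.572, 0.483 and 0.342 FPKM with bleomycin, overlapping groups. Both high values are those of the libraries with the endothelial markers. The ratio of *Ctgf* to *Cyr61* within a library, which no scaling can move, was 0.25, 0.381, 0.828 and 0.243 in *Acta2-tdT* saline and 1.1, 0.862, 0.783 and 0.48 in *Acta2-tdT* bleomycin. These ratios overlap, through saline replicate 3.

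*Thbs1* (ENSMUSG00000040152, chr2:118111876-118127133) encodes thrombospondin 1, a matricellular protein that can activate latent TGF-β. It went from 3.12, 2.45, 2.87 and 4.65 FPKM in *Acta2-tdT* saline to 262, 110, 323 and 433 FPKM in *Acta2-tdT* bleomycin, the highest level of the 10 genes in any group. Its differences, 5.91 ± 0.45 as deposited and 2.996 ± 0.226 scaled, were the largest of the 10, at rank 33 and 34 of 12523 genes. Its scaled values were 4.15, 3.38, 2.9 and 3.95 with saline and 40.4, 23.3, 36.4 and 45.9 with bleomycin, well apart. In *Pdgfra-tdT* saline it was 0.094, 0.952, 1.85 and 1.94 FPKM, and in *Pdgfra-tdT* bleomycin 4.07, 0.331, 0.15 and 0.122 FPKM. Replicate 5 was the high one of the bleomycin libraries, and without it and saline replicate 3 the difference in *Pdgfra-tdT* cells was -0.62 ± 0.42, with overlap.

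*Ankrd1* and *Axl* encode proteins that stay with the cell. *Ankrd1* (ENSMUSG00000024803, chr19:36111965-36119844), an ankyrin repeat protein of muscle sarcomeres and nuclei, was 0.626, 0.658, 1.31 and 1.07 FPKM in *Acta2-tdT* saline and 34.4, 22.4, 18.3 and 34.5 FPKM in *Acta2-tdT* bleomycin. The groups stood apart as deposited (3.86 ± 0.25) and scaled (1.27 ± 0.24). In *Pdgfra-tdT* cells it stayed between 0.257 and 1.2 FPKM, and as deposited it was the only target for which replicate 5 was the lowest of the bleomycin libraries. *Axl* (ENSMUSG00000002602, chr7:25757273-25788705), the receptor tyrosine kinase for GAS6, which also serves macrophages in clearing dead cells, was 2.27, 3.54, 4.37 and 4.74 FPKM in *Acta2-tdT* saline and 80.7, 42.3, 134 and 125 FPKM in *Acta2-tdT* bleomycin. These differed by 4.25 ± 0.42 as deposited and 1.39 ± 0.19 scaled, without overlap on either scale. *Axl* was also the member with the largest difference within *Pdgfra-tdT* cells, from 0.261, 0.415, 0.308 and 0.493 FPKM with saline to 7.8, 2.48, 1.47 and 0.321 FPKM with bleomycin. Bleomycin replicates 5, 6 and 7 were above and replicate 8 was among the saline values, so the groups overlapped (1.21 ± 0.57, and 0.70 ± 0.42 without the pair of endothelial libraries).

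The feedback inhibitors differed less. *Amotl2* (ENSMUSG00000032531, chr9:102716802-102733418), an angiomotin family protein that holds YAP and TAZ at junctions, was 0.255, 0.754, 0.304 and 0.268 FPKM in *Acta2-tdT* saline and 6.57, 2.21, 4.44 and 4.29 FPKM in *Acta2-tdT* bleomycin. The difference of 1.90 ± 0.28 was near the median of all genes tested, and scaled it was 0.14 ± 0.20, with overlap. In *Pdgfra-tdT* cells *Amotl2* was 0.0947, 0.052, 2.36 and 0.0538 FPKM with saline and 4.08, 0.0369, 0.371 and 0.114 FPKM with bleomycin, high in the pair of endothelial libraries and otherwise near or under the gauge. *Lats2* (ENSMUSG00000021959, chr14:57689662-57746123), the kinase that phosphorylates YAP and TAZ, was 0.926, 0.928, 0.817 and 2.3 FPKM in *Acta2-tdT* saline and 13.2, 8.01, 15.8 and 24.2 FPKM in *Acta2-tdT* bleomycin. As deposited the groups were apart by 2.81 ± 0.37, but scaled they overlapped at 0.39 ± 0.17. In *Pdgfra-tdT* saline *Lats2* was 0.534, 0.408, 10.6 and 0.215 FPKM, and in *Pdgfra-tdT* bleomycin it was 8.02, 1.75, 0.94 and 0.273 FPKM. The 10.6 FPKM of saline replicate 3 is the largest value of any of the 10 genes in *Pdgfra-tdT* saline. *Lats1*, the sister kinase, ranged over no more than 0 to 1.65 FPKM in all 16 libraries.

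Among the factors, *Yap1* (ENSMUSG00000053110, chr9:7931999-8004596) was the lowest of the 10 in *Acta2-tdT* bleomycin, at 1.17, 0.354, 0.909 and 0.455 FPKM, against 0.333, 0.534, 0.653 and 0.206 FPKM in *Acta2-tdT* saline. The groups overlapped and differed by 0.25 ± 0.19, where the median gene differed by 1.76. Scaled, the sign turned: *Yap1* was 0.444, 0.737, 0.661 and 0.175 scaled FPKM with saline and 0.181, 0.0752, 0.103 and 0.0483 with bleomycin, a difference of -0.43 ± 0.13, with the overlap resting on saline replicate 4. Of the 4 saline values 3 lay above the gauge of their library (0.323 to 0.332 FPKM). With bleomycin all 4 did (gauge of 0.0134 to 0.122). Scaling moves values this low together with the gauge, so nothing is read from the turned sign. In *Pdgfra-tdT* cells it was 0.227, 0.21, 0.96 and 0.16 FPKM with saline and 1.44, 0.101, 0.242 and 0.171 FPKM with bleomycin, again highest in the endothelial pair. *Yap1* reached 1 FPKM in too few libraries to be tested in any comparison. *Wwtr1* (ENSMUSG00000027803, chr3:57455649-57575910) was 0.326, 0.315, 0.925 and 0.722 FPKM in *Acta2-tdT* saline and 6.94, 6.79, 9.87 and 16.9 FPKM in *Acta2-tdT* bleomycin. Here the groups stood apart by 2.76 ± 0.31 as deposited and 0.55 ± 0.14 scaled. In *Pdgfra-tdT* cells *Wwtr1* was 0.118, 0.181, 1.99 and 0.201 FPKM with saline and 11, 2.62, 0.269 and 0.141 FPKM with bleomycin, so that bleomycin replicate 5 reached the range of *Acta2-tdT* bleomycin. *Tead1* (ENSMUSG00000055320, chr7:112679318-112906807) was 0.151, 0.208, 0.191 and 0.185 FPKM with saline, all 4 under the receptor gauge and with a lower bound of 0 given by the authors, and 4.2, 2.26, 3.21 and 2.62 FPKM with bleomycin. Its scaled values, 0.202, 0.287, 0.193 and 0.157 against 0.648, 0.48, 0.362 and 0.278, overlapped. In *Pdgfra-tdT* cells *Tead1* stayed between 0.0651 and 0.492 FPKM with either agent.

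The balance of the coactivators was also taken within a library, as a ratio that no scaling can move. *Wwtr1* to *Yap1* was 0.98, 0.589, 1.42 and 3.51 in *Acta2-tdT* saline and 5.92, 19.2, 10.9 and 37.1 in *Acta2-tdT* bleomycin. With bleomycin every *Acta2-tdT* library held at least 5.92 times as much *Wwtr1* as *Yap1* per length, and the groups did not overlap. In *Pdgfra-tdT* cells the ratio was 0.521, 0.862, 2.07 and 1.25 with saline and 7.63, 25.9, 1.11 and 0.824 with bleomycin. The last group was split, with replicates 5 and 6, the libraries of that group with the most endothelial marker signal, at the high end. The denominators are small, since *Yap1* was under 1 FPKM in 14 of 16 libraries, and the ratio was chosen after the values were seen. In *Acta2-tdT* saline 2 of 4 *Wwtr1* and 3 of 4 *Yap1* values lay above the gauge of their library, and all 4 of each did with bleomycin. In *Pdgfra-tdT* saline 1 of 4 of each did. The saline ratios thus rest in part on values near or under the gauge.

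**Figure D2:**
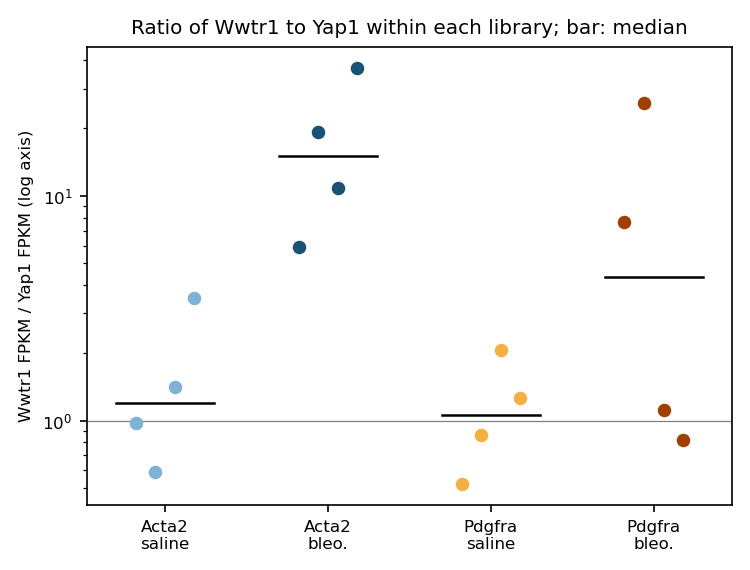
Ratio of *Wwtr1* FPKM to *Yap1* FPKM (log axis) in each library, with 1 point per mouse, a bar at the median of 4 and a grey line at equal levels. *Acta2-tdT* bleomycin spans 5.92 to 37.1, above the 0.589 to 3.51 of *Acta2-tdT* saline, and *Pdgfra-tdT* bleomycin splits into a high and a low pair.

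The 10 genes spread over a wide range of levels within the group where they were highest. By median FPKM in *Acta2-tdT* bleomycin the order was *Thbs1* (292), *Cyr61* (111), *Axl* (103), *Ctgf* (76.8), *Ankrd1* (28.4), *Lats2* (14.5), *Wwtr1* (8.41), *Amotl2* (4.36), *Tead1* (2.91) and *Yap1* (0.682). Neighbours in this order overlapped except at 3 steps, from *Ctgf* to *Ankrd1*, from *Wwtr1* to *Amotl2* and from *Tead1* to *Yap1*. In *Acta2-tdT* saline the order was *Cyr61* (7.87), *Axl* (3.96), *Thbs1* (2.99), *Ctgf* (2.68), *Lats2* (0.927), *Ankrd1* (0.865), *Wwtr1* (0.524), *Yap1* (0.434), *Amotl2* (0.286) and *Tead1* (0.188). Here neighbours overlapped at every step but the last, from *Amotl2* to *Tead1*. Within *Acta2-tdT* bleomycin, replicate 6 was the lowest in 9 of the 10 genes, all but *Ankrd1*, and it also had the lowest protein-coding sum of its group.

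By limma on log2(FPKM + 1), with Benjamini-Hochberg adjustment over all genes tested, 9 of the 10 were called higher with bleomycin in *Acta2-tdT* cells, all but the untested *Yap1*, where 86.6% of 12523 genes were called in either direction and 70.4% higher. The test took genes at 1 FPKM or more in at least 4 of the 8 mice. *Ankrd1*, *Amotl2*, *Lats2*, *Wwtr1* and *Tead1*, 5 of the 10, passed this filter only through the bleomycin group, which favours a difference. *Amotl2*, *Wwtr1* and *Tead1* were under 1 FPKM in every saline library, so these 3 had to differ. Scaled, 6 of the 9 were called: *Ctgf*, *Ankrd1*, *Thbs1*, *Axl*, *Wwtr1* and *Tead1*. On that scale 56.6% of genes were called, with 23.9% of those tested higher and 32.6% lower, and the median difference of all genes was -0.02. The median over the 9 was 3.76 as deposited and 0.86 scaled, and nothing is read from these counts, since the genes were chosen with them known.

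**Figure D3:**
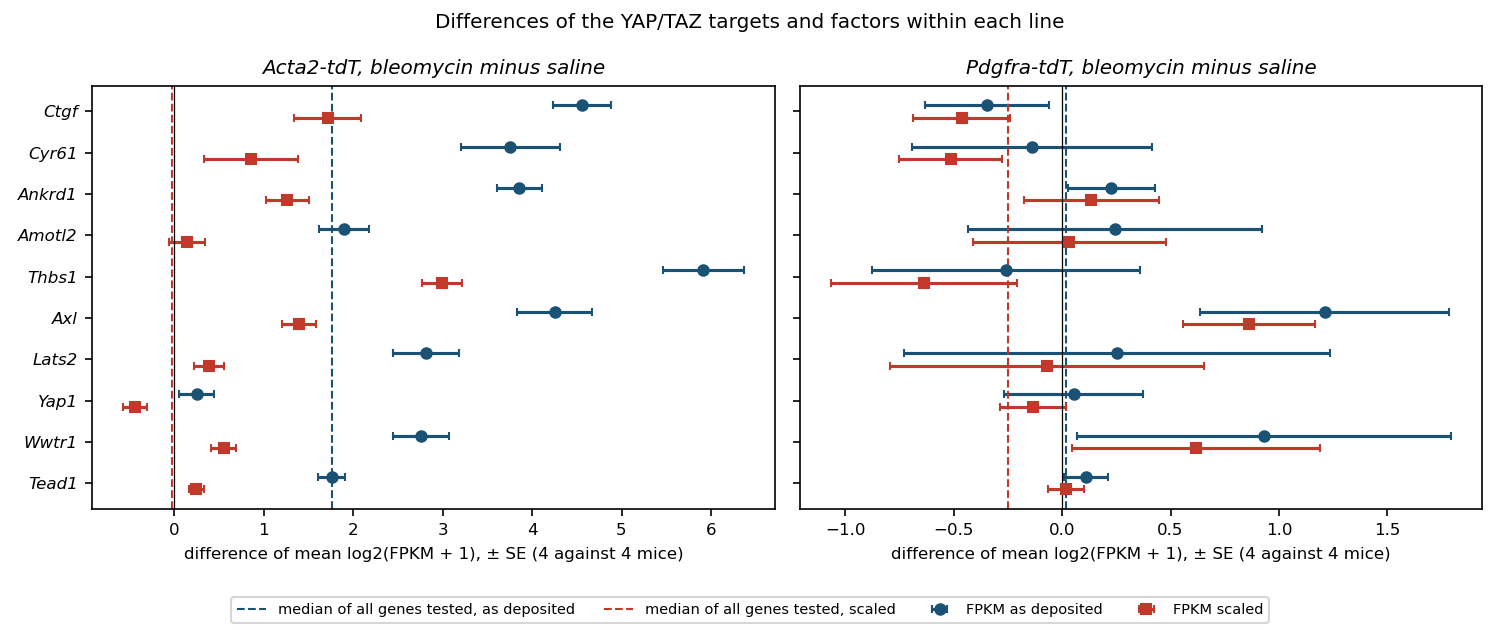
Difference of mean log2(FPKM + 1), bleomycin minus saline, with its SE (4 against 4 mice), for each gene in *Acta2-tdT* cells (left) and *Pdgfra-tdT* cells (right), as deposited (circles) and scaled (squares), with dashed lines at the median of all genes tested. In *Acta2-tdT* cells scaling takes *Thbs1* from 5.91 to 2.996 and *Amotl2* from 1.90 to 0.14, whereas *Yap1* goes from 0.25 to -0.43.

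**Figure D4:**
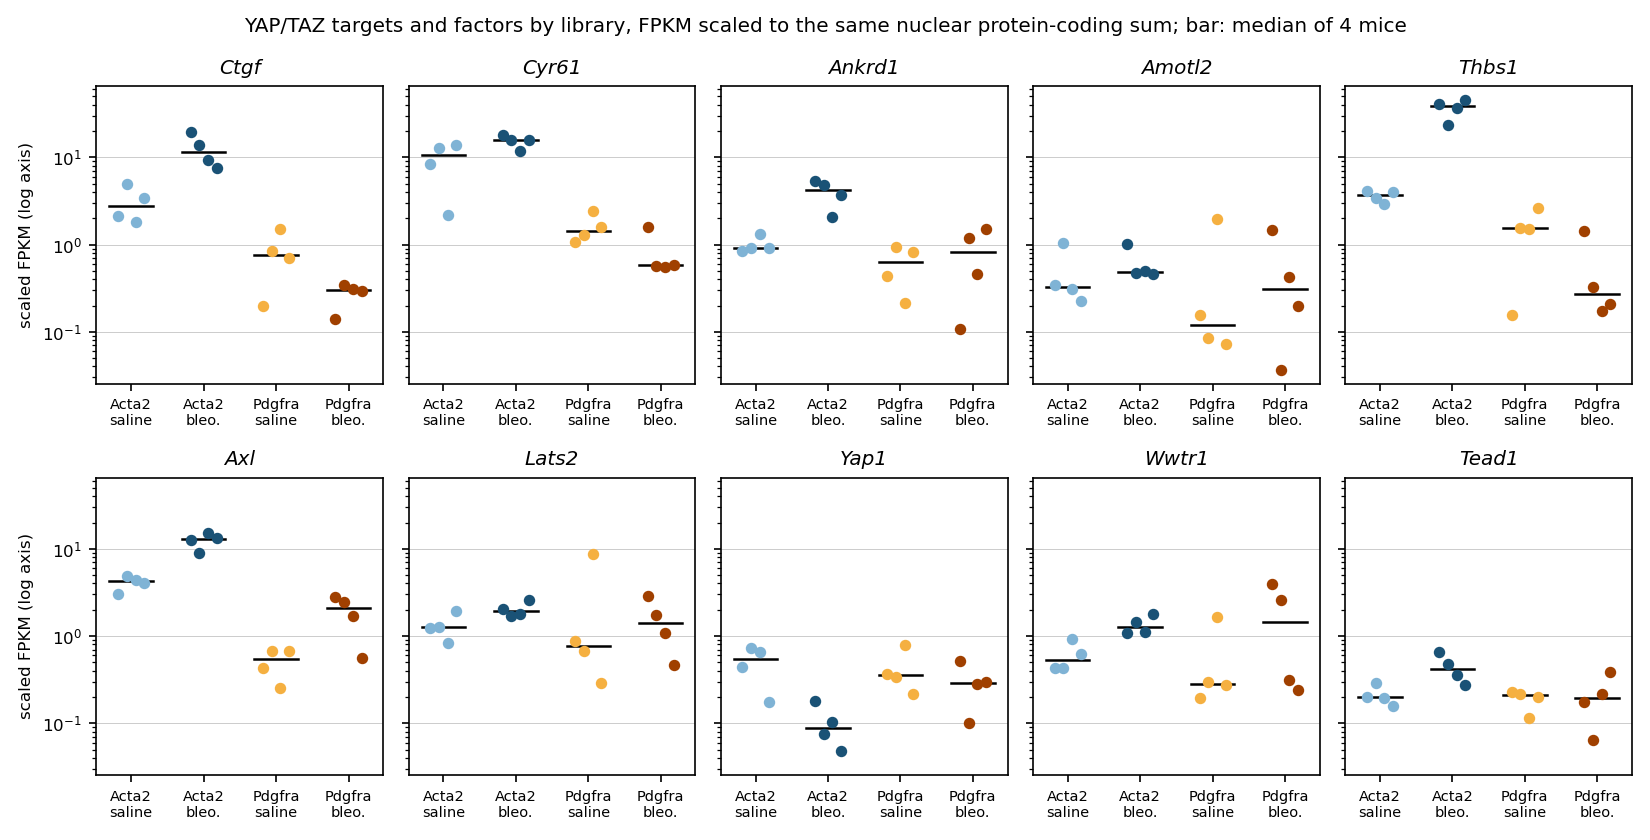
FPKM scaled to the same nuclear protein-coding sum (log axis) for the 10 genes by library, with 1 point per mouse and a bar at the median of 4. *Ctgf*, *Ankrd1*, *Thbs1*, *Axl* and *Wwtr1* keep *Acta2-tdT* bleomycin above *Acta2-tdT* saline without overlap, and *Yap1* has its lowest median in *Acta2-tdT* bleomycin.

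Between the lines with saline, 4 of the 10 were tested, *Ctgf*, *Cyr61*, *Thbs1* and *Axl*, and *Axl* alone was called higher in *Acta2-tdT* cells, where 2.91% of 8153 genes were called in either direction and 2.72% higher. Scaled, *Axl* was again the 1 gene called, where 3.42% of genes were called and 3.2% higher. All 4 genes passed the filter only with the help of the *Acta2-tdT* libraries, so nothing is read from the call. As deposited it was lost without a filter and with the replicate block. *Axl* differed by 1.76 ± 0.19, *Cyr61* by 1.85 ± 0.59, *Ctgf* by 1.13 ± 0.37 and *Thbs1* by 1.03 ± 0.36. As deposited *Axl*, *Thbs1*, *Ankrd1* and *Tead1* did not overlap between the lines, where 6.56% of genes tested were higher without overlap. Of these 4 genes *Axl* and *Thbs1* were tested, and *Tead1* differed by only 0.054 ± 0.015, with all 8 values under the gauge. Scaled, *Ctgf*, *Thbs1* and *Axl*, all tested, did not overlap, where 7.75% of genes were so separated. In the other 6 genes as deposited, *Pdgfra-tdT* saline replicate 3 was the highest library of its group. Without that library 9 of the 10 stood apart, all but *Yap1*, where 30.2% of the genes tested did so, and on the scaled values 6, where 26.5% did. These shares cover genes tested, which hold 4 of the 10, and nothing is read from the counts. The 4 tested genes were then all called, as were 29.4% of all genes tested. The differences were then 1.39 ± 0.28 for *Ctgf*, 2.12 ± 0.53 for *Cyr61*, 1.19 ± 0.44 for *Thbs1* and 0.66 ± 0.22 for *Lats2*.

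With bleomycin the lines were farther apart. All 9 tested genes were called higher in *Acta2-tdT* cells, where 79.6% of 11995 genes were called in either direction and 71% higher. Each of the 9 passed the filter only with the help of the *Acta2-tdT* libraries, and *Ctgf* and *Tead1* were under 1 FPKM in every *Pdgfra-tdT* bleomycin library, so these 2 had to differ, and nothing is read from these calls. As deposited 6 of them did not overlap, where 56.8% of genes tested were higher without overlap, and scaled 5, where 18.9% were. *Thbs1* differed by 7.20 ± 0.67, *Ctgf* by 6.03 ± 0.22, *Cyr61* by 5.74 ± 0.52, *Axl* by 4.80 ± 0.68 and *Ankrd1* by 4.05 ± 0.28, and these were the 5 that were still called once scaled, where 33.4% of genes were called and 15.8% higher. Their scaled differences were 4.64 ± 0.32, 3.33 ± 0.29, 3.18 ± 0.21, 2.29 ± 0.32 and 1.47 ± 0.36. *Lats2*, *Amotl2* and *Wwtr1* overlapped as deposited through *Pdgfra-tdT* bleomycin replicate 5, and without that library all 10 stood apart, *Wwtr1* by 2.59 ± 0.60, where 73.7% of the genes tested were higher without overlap. On the scaled values 6 of the 10 then stood apart, where 31.2% of genes did. On the scaled values the *Wwtr1* groups overlapped, with a difference of 0.01 ± 0.51 over all libraries and 0.38 ± 0.51 without that pair.

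Within *Pdgfra-tdT* cells none of the 10 reached 1 FPKM in 4 of the 8 libraries, so none was tested, and 0.124% of 7275 genes were called (0.137% scaled). The differences ran from -0.35 ± 0.29 for *Ctgf* to 1.21 ± 0.57 for *Axl*. For *Lats2*, *Wwtr1* and *Amotl2* they were 0.25 ± 0.98, 0.93 ± 0.86 and 0.24 ± 0.68 with all libraries, and 0.46 ± 0.34, 0.58 ± 0.53 and 0.13 ± 0.12 without the endothelial pair. All 10 genes overlapped on both scales, and 2.27% of the genes tested, none of them one of the 10, were separated on the scaled values. Without the pair of endothelial libraries *Cyr61* alone separated, with a log2 difference of -0.34 ± 0.13, at levels of 0.656 to 1.15 FPKM with saline and 0.342 to 0.572 with bleomycin. With 3 libraries a side 19.4% of the genes tested separated in either direction (18.2% scaled), again without the 10, so nothing is read from this.

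Whether bleomycin and saline differed by the same amount in both lines was fitted as the interaction of line and agent over 16 mice. For the 10 genes it is a description, since they were chosen with these differences known, and nothing is read from the calls. It was called for 7 of the 9 tested genes, where 39.8% of 16605 genes were called and 36.6% with the larger difference in *Acta2-tdT* cells, and the 2 exceptions were *Amotl2* and *Wwtr1*. *Ankrd1*, *Amotl2*, *Wwtr1* and *Tead1* passed the filter only with *Acta2-tdT* bleomycin, which favours a difference. The difference of differences was 6.17 ± 0.77 for *Thbs1*, 4.90 ± 0.43 for *Ctgf*, 3.90 ± 0.78 for *Cyr61*, 3.63 ± 0.32 for *Ankrd1*, 3.04 ± 0.71 for *Axl*, 2.56 ± 1.05 for *Lats2*, which lay at the threshold, and 1.65 ± 0.18 for *Tead1*. It was 1.65 ± 0.73 for *Amotl2* and 1.82 ± 0.92 for *Wwtr1*, and without the endothelial pair 1.77 ± 0.31 and 2.18 ± 0.62. All 9 were called without that pair, as were 54.7% of all genes tested, and they ran from 1.74 ± 0.16 for *Tead1* to 6.54 ± 0.62 for *Thbs1*. Scaled, *Thbs1* (3.63 ± 0.49) and *Ctgf* (2.18 ± 0.44) were called, 2 of the 9, where 2.22% of genes were called and 1.33% in that direction. Without the pair their scaled values were 3.83 ± 0.54 and 1.96 ± 0.42. The *Axl* value was 0.53 ± 0.36 on that scale, with scaled differences of 1.39 in *Acta2-tdT* and 0.86 in *Pdgfra-tdT* cells.

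**Figure D5:**
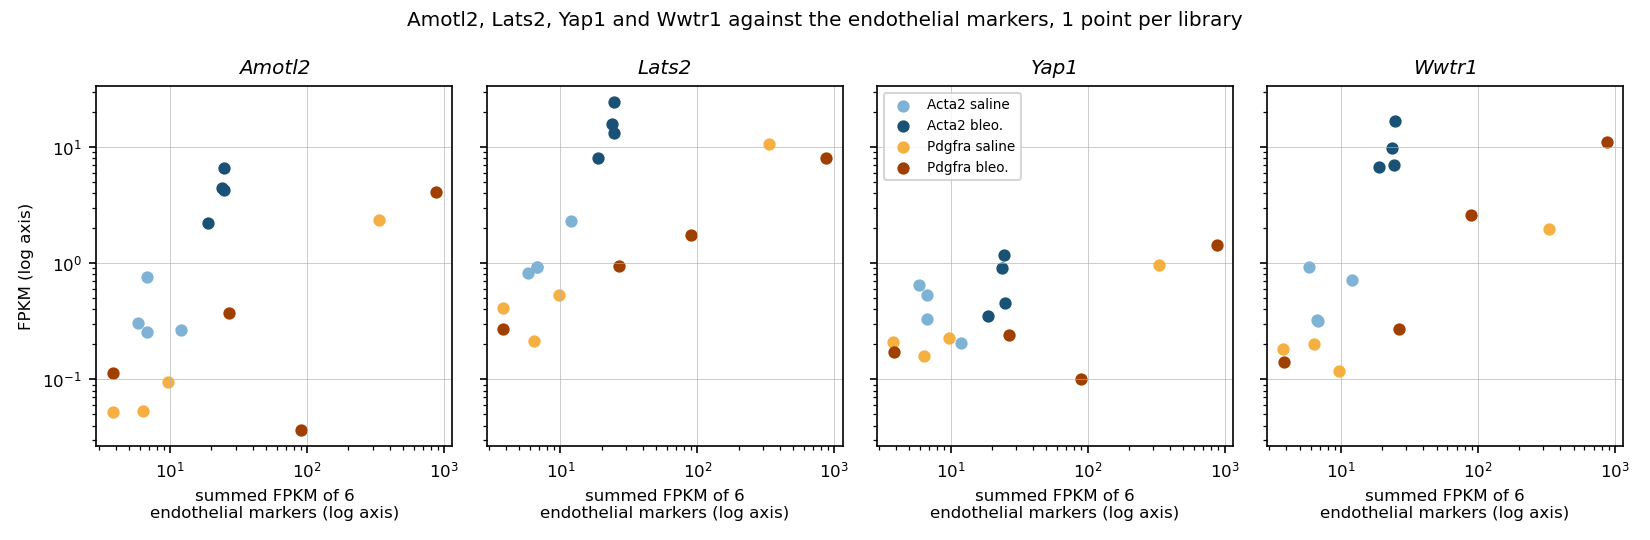
FPKM of *Amotl2*, *Lats2*, *Yap1* and *Wwtr1* against the summed FPKM of 6 endothelial markers, both on log axes, with 1 point per library. *Pdgfra-tdT* saline replicate 3 (333) and bleomycin replicate 5 (875) lie far to the right and carry the highest values of all 4 genes in their groups, whereas *Acta2-tdT* bleomycin reaches 24.2 in *Lats2* and 6.57 in *Amotl2* at marker sums of 18.9 to 24.8.

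Other markers moved with the same comparison. In *Acta2-tdT* libraries the 8 macrophage markers summed to 70.6 to 420 FPKM with saline and 2282 to 10170 with bleomycin (97.4 to 357 and 352 to 1146 once scaled), with all 8 at 1 FPKM or more in every bleomycin library. The 6 fibroblast markers (*Pdgfra*, *Col1a1*, *Col1a2*, *Col3a1*, *Dcn* and *Lum*) summed to 19.1 to 38.7 FPKM with saline and 1030 to 3143 with bleomycin, and scaled to 25.4 to 32.9 and 219 to 333. The 6 smooth muscle markers summed to 429 to 634 scaled FPKM with saline and 368 to 568 with bleomycin, which overlap, but within the list *Myh11* (9.74 to 11.8 against 1.66 to 3.32) and *Myl9* (208 to 313 against 75.6 to 130) were lower and *Des* (10.3 to 13.8 against 35.6 to 61.9) was higher with bleomycin. In the same libraries the 6 endothelial markers scaled to 5.91 to 10.2 and 2.63 to 4.01. The platelet markers, relevant to *Thbs1*, which platelets store, summed to 11.3 to 46.5 scaled FPKM with saline and 17.1 to 38.8 with bleomycin, overlapping ranges. As deposited they summed to 8.45 to 54.7 and 111 to 344 FPKM, without overlap. Scaled sums of the 5 neutrophil markers were 1012 to 1493 with saline and 128 to 877 with bleomycin, those of the 5 markers of other leukocytes 4.03 to 6.51 and 1.63 to 3.54, and those of the 7 epithelial markers 61.5 to 796 and 34.9 to 238. In *Pdgfra-tdT* libraries the macrophage markers likewise went from 39.8 to 89.5 FPKM with saline to 389 to 3308 with bleomycin. Their 6 fibroblast markers summed to only 6.82 to 56.4 FPKM with saline and 2.62 to 160 with bleomycin (11.2 to 46.3 and 4.08 to 57 once scaled), highest in the endothelial pair. Of these 6 markers 1 was at 1 FPKM or more in bleomycin replicate 7 and 0 in replicate 8, and all 6 were in every *Acta2-tdT* bleomycin library. The part of these cells in the values of the 10 genes was not tested.

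Of the other pathway genes in *Acta2-tdT* cells, 28 of 49 were tested and all 28 were called higher with bleomycin as deposited, where 70.4% of genes were. Of these, 26 passed the filter only through the bleomycin group, all but *Vgll4* and *Rbms3*, and 13 were under 1 FPKM in every saline library. Their differences were thus built in as deposited, and the filter, set on values as deposited, bears on the scaled ones too. Sizes are therefore given with no p for such genes. Scaled, 8 were called higher, 1 lower and 19 did not pass, where 23.9% of genes tested were higher and 32.6% lower, and nothing is read from these counts. The Hippo kinase cascade had 7 tested members of 10. *Mob1a*, the LATS cofactor, differed by 2.71 ± 0.28, *Map4k4*, a kinase upstream of LATS, by 2.53 ± 0.23 and *Taok3*, which activates the MST kinases, by 2.36 ± 0.31. Once scaled *Mob1a* differed by 0.56 ± 0.12, *Map4k4* by 0.44 ± 0.18 and *Taok3* by 0.08 ± 0.22, and of these 3 *Mob1a* alone was still called. *Taok1*, under 1 FPKM in every saline library, was lower once scaled (-0.38 ± 0.10) but higher as deposited (0.92 ± 0.18). It is named because it was the 1 called lower once scaled, after its value was seen, and nothing is read from this. Among the other regulators 5 of 14 were tested, of which *Rassf1* (2.89 ± 0.35) and *Frmd6* (2.22 ± 0.20) differed most. Scaled, the differences were 0.59 ± 0.22 for *Rassf1* and 0.40 ± 0.14 for *Frmd6*.

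The TEAD partners were few. Of the other TEAD and vestigial-like genes 3 of 7 were tested. *Vgll4*, a known competitor of YAP for TEAD, was 1.11 to 2.6 FPKM with saline and 17.3 to 28.8 with bleomycin (2.99 ± 0.30). *Vgll3* was 0.282 to 0.906 and 6.26 to 9.42 (2.56 ± 0.24), and *Tead3* 0.0731 to 0.261 and 1.12 to 2.16 (1.14 ± 0.17), and both were tested only because of their bleomycin values. Scaled, *Vgll3* differed by 0.42 ± 0.14 and *Tead3* by 0.05 ± 0.07. *Vgll4*, which was at 1 FPKM or more in every saline library too, rose as deposited (limma adjusted p = 1.81e-05) and did not pass once scaled (0.39 ± 0.20, adjusted p = 0.118). *Tead2* and *Tead4* stayed at or under 1.81 and 0.885 FPKM.

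Of the further YAP/TAZ targets 11 of 15 were tested, 10 of them having passed only through bleomycin. As deposited all 11 were called higher, where 70.4% of genes were, and scaled 2 were, where 23.9% of genes were. Those 2 were *Ccdc80*, a matrix protein, at a scaled difference of 2.61 ± 0.19 and *Tgfb2*, a TGF-β ligand, at 1.31 ± 0.17. *Ccdc80* went from 0.675 to 1.51 FPKM with saline to 55.6 to 139 with bleomycin, and *Tgfb2* from 0.86 to 1.56 to 19.8 to 44.6. *Myof*, a membrane repair protein, differed by 2.35 ± 0.34 as deposited and by 0.22 ± 0.15 scaled.

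The relatives of *Ctgf* and *Cyr61* in the CCN family of secreted proteins were *Wisp1*, *Wisp2* and *Nov*. *Wisp1* (CCN4) was 0.153 to 0.465 FPKM in *Acta2-tdT* saline and 28.7 to 108 FPKM in *Acta2-tdT* bleomycin, a difference of 5.51 ± 0.41 as deposited and 2.76 ± 0.22 scaled. *Wisp2* (CCN5) was 0.303 to 1.46 FPKM and 13.9 to 42.1 FPKM, a difference of 3.61 ± 0.40 and 1.04 ± 0.29 scaled. Both passed the filter only through their bleomycin values, so no p is given. *Nov* (CCN3) was 0.11 to 1.32 FPKM with saline and 0 to 1.64 FPKM with bleomycin, too low for the test. In *Pdgfra-tdT* cells these 3 stayed at or under 0.487 FPKM with either agent. The difference of differences between the lines was 5.48 ± 0.47 for *Wisp1*, and 2.87 ± 0.31 scaled. For *Wisp2* it was 3.64 ± 0.45, and 1.17 ± 0.35 scaled.

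In the other comparisons of the 49 pathway genes, none of 3 tested passed by limma between the lines with saline, where 2.91% of 8153 genes did. Of the 3, 1 had an unadjusted p under 0.05, as had 1116 of all genes tested. Without the endothelial pair all 3 passed, as did 29.4% of genes tested, and nothing is read from this. Within *Pdgfra-tdT* cells only *Rbms3*, an RNA-binding protein, was tested, and it did not pass (-0.34 ± 0.51, limma adjusted p = 0.814). Between the lines with bleomycin 27 of 33 were called higher in *Acta2-tdT* cells as deposited, where 71% of genes were, and 8 higher and 1 lower once scaled, where 15.8% of genes were higher and 33.4% called. All 33 passed the filter only with the help of the *Acta2-tdT* libraries, so sizes are given with no p. Past *Wisp1* (5.601 ± 0.546) and *Wisp2* (4.31 ± 0.45), the largest were *Ccdc80* (5.37 ± 0.60), *Tgfb2* (4.63 ± 0.44) and *Rbms3* (3.87 ± 0.50). *Mob1b*, the other LATS cofactor and named after its value was seen, was the 1 called lower in *Acta2-tdT* cells once scaled (-0.70 ± 0.21). As deposited it did not pass (0.17 ± 0.25), and nothing is read from this. *Fat1*, a giant cadherin upstream of the cascade, differed by 0.36 ± 0.12 once scaled. The interaction was called for 21 of 33 as deposited, where 39.8% of genes were called and 27 of the 33 passed the filter only with *Acta2-tdT* bleomycin. Once scaled it was called for 3, where 2.22% of genes were, *Wisp1*, *Tgfb2* (1.55 ± 0.27) and *Ccdc80* (2.51 ± 0.32, limma adjusted p = 0.000545), of which *Ccdc80* alone passed the filter without *Acta2-tdT* bleomycin.

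The genes with a pattern most like that of *Ctgf* were found by Pearson r. Over the 16 mice, on log2(scaled FPKM + 1), the highest Pearson r with *Ctgf* among 16604 genes were those of *Loxl1* (0.955), an elastin cross-linking enzyme, *Epdr1* (0.954), *Ltbp2* (0.949), a microfibril protein, *Angptl2* (0.947) and *Hmgn3* (0.941). Of the 10 genes themselves *Thbs1* (r = 0.930, rank 13) and *Cyr61* (0.923, rank 22) were near the top, *Axl* (0.849), *Ankrd1* (0.823) and *Tead1* (0.709) came next, and *Amotl2* (0.268), *Lats2* (0.251) and *Wwtr1* (0.140) were far down. These values describe 16 points that fall into 4 groups and share the scaling, so they carry no p.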

How the data were processed

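RNA was sequenced with SmartSeq2 from sorted tdTomato-positive lung cells of 16 mice. The authors aligned reads to the mouse genome (mm10, GRCm38) with TopHat2 2.1.1 and Bowtie2 and deposited FPKM estimated with Cufflinks 2.1.1, per the labels and the study's methods. Each file had 49534 rows, which were summed over 49452 genes, and 15 genes with a failed estimate in any library were left out. FPKM hold no counts, so no counting error or detection floor could be given.

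Groups came from the labels, and each library is a separate mouse. Differences were tested by limma 3.58.1 (R 4.3.3) with its trend option, after adding a pseudocount of 1 and taking log2. Adjustment followed Benjamini and Hochberg, calls needed an adjusted p under 0.05, and the fit took genes at 1 FPKM or more in at least 4 mice of the comparison. Fold changes on this scale understate those of low genes. Scaled values set the nuclear protein-coding sum of each library to 49122. For the 10 genes, differences of means with plain SE are given. The named pathway genes are up to 3 of each list with the largest called difference, plus the CCN genes, and 1 gene that this rule names is not reported here. The script was tested on simulated data. The 10 genes and all lists were chosen with earlier results of these data known. Alternatives were both scalings, pseudocount 0.1, no filter, a mean FPKM of 5, sample weights, the largest row per gene, a replicate block and each library left out. Leaving out the pair of endothelial libraries was chosen after seeing the data. Figures used matplotlib 3.10.9.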

Additional observations from a re-analysis of the deposited data

Results flagged for a closer look

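In 9 of the 40 sets of 4 libraries (10 genes in 4 groups), the highest library was farther from the others than Dixon's 95% critical value allows. Chance flags about 1 set in 20 when sets are independent and normal. The 40 sets share 16 libraries, so the count cannot be set against that rate. Of the 9 flagged sets, 4 belong to *Pdgfra-tdT* saline replicate 3, with *Amotl2* at 2.36, *Lats2* at 10.6, *Yap1* at 0.96 and *Wwtr1* at 1.99 FPKM. A further 3 belong to *Pdgfra-tdT* bleomycin replicate 5, with *Cyr61* at 4.43, *Thbs1* at 4.07 and *Yap1* at 1.44 FPKM. These are the libraries whose 6 endothelial markers summed to 333 and 875 FPKM, and the part of endothelial RNA in the values was not tested. The other 2 were in *Acta2-tdT* saline, *Amotl2* at 0.754 FPKM in replicate 2 and *Lats2* at 2.3 FPKM in replicate 4.

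Among the 10 genes and the other CCN genes, the difference of bleomycin from saline differed between the lines by the interaction term for 9, where 39.8% of all genes tested were called, with the values as deposited: *Thbs1* 6.17, *Wisp1* 5.48, *Ctgf* 4.90, *Cyr61* 3.90, *Wisp2* 3.64, *Ankrd1* 3.63, *Axl* 3.04, *Lats2* 2.56 and *Tead1* 1.65 in log2. All of these genes were chosen with earlier results of these data known. *Ankrd1*, *Tead1*, *Wisp1* and *Wisp2* also passed the filter only with *Acta2-tdT* bleomycin, so nothing is read from the calls. Once scaled, *Thbs1*, *Ctgf* and *Wisp1* of these 9 kept the call, where 2.22% of all genes tested were called.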

How the results depend on the processing

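Among the 31 tested pairs of a gene and a comparison, the 10 genes gave 570 results under alternatives, of which 509 kept direction and side of the threshold, 43 lost the call, 17 gained it and 1 reversed, the *Wwtr1* interaction, from 1.82 to -0.0641 once scaled. The *Lats2* interaction, at the threshold, lost its call under most alternatives, and the cause was not tested. Between the lines with saline, the counts of all genes, of the 10 and of the 49 called (237, 1 and 0) became 59, 0 and 0 without a filter, 49 genes and 0 of the 10 at a mean FPKM of at least 5, 2715, 4 and 3 with sample weights, and 2397, 4 and 3 without the endothelial pair. Leaving out 1 library gave 88 to 2397, 1 to 4 and 0 to 3, the highest without *Pdgfra-tdT* saline replicate 3. With bleomycin, 9553, 9 and 27 became 4012, 5 and 9 scaled, 17 of the 49 when scaled to the sum over all genes, and 4726 genes and 11 of the 49 at a mean of 5. Leaving out 1 library gave 8355 to 10425, 8 to 9 and 24 to 31. For bleomycin in *Acta2-tdT* cells, 10848, 9 and 28 became 7083 genes and 9 of the 49 scaled, and 5069 and 10 at a mean of 5, with 10503 to 11120, 9 and 28 when 1 library was left out. In *Pdgfra-tdT* cells 9 genes became 2 without a filter, 548 with weights and 19 without the endothelial pair, with 6 to 73 when 1 library was left out, the highest without bleomycin replicate 8. For the interaction, 6605, 7 and 21 became 369, 2 and 3 scaled, 1664 and 6 of the 49 scaled over all genes, 3463 and 10 at pseudocount 0.1, 1644 and 5 at a mean of 5, and 10668 genes with weights, with 5239 to 9330, 6 to 9 and 19 to 31 when 1 library was left out.

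Replicate numbers are shared between the lines, but deviations of same-numbered mice correlated at only -0.251 to 0.125, so the numbers were not taken as pairs. With the replicate block, 36 genes, 0 of the 10 and 0 of the 49 were called between the lines with saline, 9379, 9 and 29 with bleomycin, and 5253, 7 and 19 for the interaction.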
